A study of Mus musculus with 18 samples.

Results

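Lipopolysaccharide (LPS) was added to interferon-gamma (IFNg) in cultures of mouse bone-marrow-derived macrophages, and the result was compared with IFNg alone. The comparison holds 6 of the 18 RNA sequencing libraries of the series: the 3 whose titles end in IFNg_LPS and the 3 whose titles end in _IFNg. All cells were wild type, per the labels, and were treated for 18 h; the other groups, also of 3 libraries, were a control (ctrl) and IFNg combined with the cytokines TNF or IL1b or with hypoxia. IFNg was present in both groups compared, and no group received LPS without IFNg, so an effect of LPS by itself cannot be told apart from its effect on top of IFNg. The labels do not give the LPS dose, whether both agents were added together, or whether the replicates are separate animals. The p-values therefore cover only the variation among these libraries, which could be technical.

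LPS is a component of the outer membrane of Gram-negative bacteria. Macrophages bind it through Cd14 and the Tlr4 receptor complex, which signals through the adaptors Myd88 and Ticam1 to the transcription factor NF-kappaB and to the interferon regulatory factors. IFNg raises antigen presentation and defence against microbes inside the cell. Given together, both are a textbook stimulus for nitric oxide production by macrophages.

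Macrophage genes were abundant in all 6 libraries. The 13 macrophage identity markers summed to 16842 to 18942 CPM (counts scaled to a common library total) with IFNg and to 17690 to 19715 CPM with LPS. Markers of the other cell types summed to far less, and the T cell genes Cd3e, Cd3d, Cd3g and Trac and the B cell gene Pax5 had 0 counts in all 6. Library totals ran from 14174365 to 18470650 counts. Some genes that every cell uses were also at or near 0, among them the glycolytic enzyme gene Gapdh, noticed after its values were seen, at 0.0228 ± 0.0395 CPM with IFNg. A count of 0 is therefore given only as a listed value.

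The third LPS library stood apart from the other LPS libraries. On the second principal component of the 6 libraries, which held 21.1% of the variance, it lay at -61, against 34.8 and 37.8 for the first and second LPS libraries and -6.1 to -0.4 for the IFNg libraries. On the first component, with 46.4% of the variance, all 3 LPS libraries lay between 37.3 and 59.5 and the IFNg libraries between -50.9 and -44.3. Of 11563 tested genes, 602 stood at least 2-fold lower and 239 at least 2-fold higher in it than in the other LPS libraries. Such genes numbered 841 in all, against 423 and 406 for the first and second LPS libraries and 199 to 329 for the IFNg libraries. The low genes had a median GC content of 54.6%, the high ones of 46.7% and all tested genes of 50.1%. Their median levels were 4.3, 2.26 and 21.3 CPM. Across genes, deviation correlated with GC content at -0.33 in the third, 0.33 in the first and 0.09 in the second LPS library. Each deviation was taken from the mean of the other libraries of its group. The first and second LPS libraries were thus compared with a mean that includes the third, and these counts and correlations are not independent. The part of the third LPS library in the calls against IFNg was measured by leaving it out, and counts without it are given beside each pathway list. The direct test of LPS against TNF below is given only with it included.

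**Figure D1:**
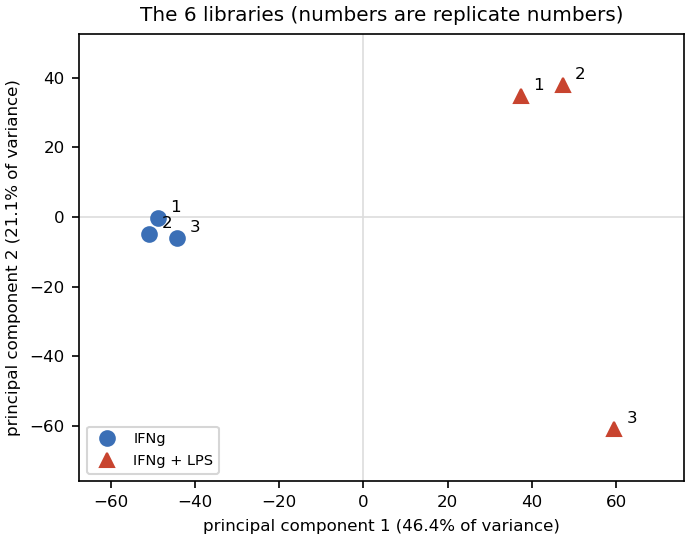
Principal components 1 and 2 of log2 expression in the 6 libraries; circles are IFNg and triangles IFNg with LPS, and the numbers are replicate numbers. The groups separate along component 1, and the third LPS library lies at -61 on component 2, away from the 5 others.

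LPS changed 2348 of 11563 tested genes (20.3%) at an adjusted p under 0.05 by the quasi-likelihood test of edgeR: 1184 were higher (10.2%) and 1164 lower (10.1%). Of these, 992 changed at least 2-fold, 483 upward and 509 downward; 100 rose and 43 fell at least 10-fold. The median log2 fold change of all tested genes was -0.004. Without the third LPS library 2198 genes were called, and 1923 of the 2348 were called again in the same direction. Scaling each library to the read total implied by its RPKM values, in place of TMM normalization, shifted the median by -0.077 and gave 962 higher and 1441 lower genes. Shares of gene groups below are read against the 10.2% and 10.1% of all tested genes. Levels are CPM as mean ± SD of 3 libraries, and log2 fold changes of LPS with IFNg over IFNg are followed by their standard error (SE). The SE was derived from the test, as the absolute log2 fold change over the square root of its F value.

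The leading rises included Nos2, Slc7a11 and receptors for microbial sugars and peptides. Leading genes were selected among called genes whose groups did not overlap, so for them that separation is not a finding. Nos2 (ENSMUSG00000020826, chromosome 11, 78920787 to 78960254 on mm10), the inducible nitric oxide synthase gene, had 19, 22.1 and 33.6 CPM in the IFNg libraries and 3040.2, 3539.5 and 2694 CPM in the LPS libraries. The lowest LPS library was far above the highest IFNg library, and the log2 fold change was 6.96 ± 0.27 (adjusted p = 5.28e-13). Slc7a11 (ENSMUSG00000027737, chromosome 3, 49892526 to 50443614) encodes the cystine importer that feeds glutathione synthesis. It had 1 count in all over the 3 IFNg libraries and 31.3, 41.7 and 19.9 CPM with LPS. The ratio was 1617, with a 95% counting interval of 289.9 to 63924 that covers counting error only. Clec4e (ENSMUSG00000030142, chromosome 6, 123281789 to 123289870), which encodes the lectin receptor Mincle, had 3.7, 6.06 and 3.69 CPM with IFNg and 357, 367 and 272 CPM with LPS. It rose by 6.21 ± 0.23 (adjusted p = 7.2e-15). Its neighbours Clec4n, the Dectin-2 gene, and Clec4d rose by 6.53 ± 0.5 and 4.9 ± 0.15; reads could be shared among near copies of this cluster.

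Several others of the 15 largest rises encode cell-surface proteins. Fpr2, a receptor for formylated peptides, went from 2.38 ± 0.685 to 89.9 ± 11.8 CPM. Tarm1, an activating receptor of myeloid cells, went from 0.138 ± 0.119 to 39.9 ± 13.4 CPM. The membrane-bound matrix metalloproteinase gene Mmp14 rose by 5.37 ± 0.37 (adjusted p = 1.54e-09), and Procr, the protein C receptor gene, by 5.04 ± 0.2 (adjusted p = 1.51e-15). Pdpn, which encodes podoplanin, rose by 4.98 ± 0.44 (adjusted p = 1.22e-07), Cd38, an enzyme that degrades NAD, by 5.55 ± 0.74, and Ednrb, an endothelin receptor gene, by 4.84 ± 0.67. The kinase gene Wnk2 was less even, with 40.5, 17.2 and 14.1 CPM in the LPS libraries against 0.387 ± 0.336 CPM with IFNg. Ptges, the inducible prostaglandin E synthase gene, and Il1b complete the 15.

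**Figure D2:**
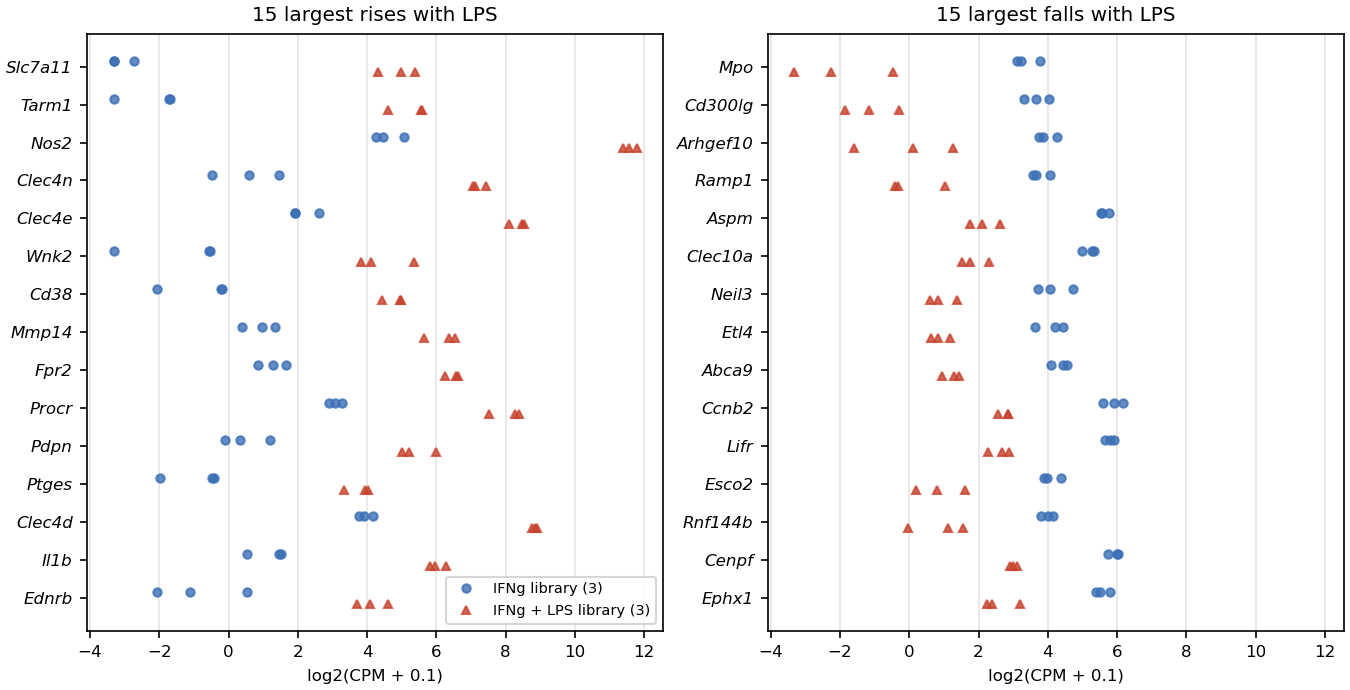
Level in each library, as log2(CPM + 0.1), of the 15 genes with the largest rise and the 15 with the largest fall among called genes of at least 10 CPM in the higher group; circles are IFNg libraries and triangles LPS libraries. The selection required that the groups not overlap, so the third LPS library lies on the side of its group by selection.

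Promoter windows of the leading rises are shown because NF-kappaB and the interferon regulatory factors are the textbook endpoints of Tlr4 signalling. These genes were chosen for the size of their rise, so their shared direction is not a finding. RefSeq windows of 300 bases on GRCm38.p6, 250 before the annotated start and 50 from it onward, were found for 13 of the 15 genes. A kappaB-like motif, GGGNNTTNCC on either strand, was in 2 of them, and 4.79% of all 32851 windows held it. An ISRE-like motif, GAAANNGAAA on either strand, was in 1, and 3.44% of all windows held it. Capitals mark the match in the 3 windows that held one, written on the gene's strand:
Procr, chr2:155750967-155751266, kappaB-like on the minus strand: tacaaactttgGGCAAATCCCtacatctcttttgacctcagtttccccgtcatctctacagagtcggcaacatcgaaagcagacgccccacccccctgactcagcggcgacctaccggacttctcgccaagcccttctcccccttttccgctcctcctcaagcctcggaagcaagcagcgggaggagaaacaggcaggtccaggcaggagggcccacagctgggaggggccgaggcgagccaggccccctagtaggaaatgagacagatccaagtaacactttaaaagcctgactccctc
Pdpn, chr4:143299515-143299814, kappaB-like on the plus strand: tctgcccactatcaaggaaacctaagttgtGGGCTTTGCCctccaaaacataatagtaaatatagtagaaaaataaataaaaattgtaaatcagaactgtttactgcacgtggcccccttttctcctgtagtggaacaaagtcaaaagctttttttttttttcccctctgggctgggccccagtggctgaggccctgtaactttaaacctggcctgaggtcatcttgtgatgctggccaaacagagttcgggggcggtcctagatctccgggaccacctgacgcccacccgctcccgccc
Clec4d, chr6:123261857-123262156, ISRE-like on the minus strand: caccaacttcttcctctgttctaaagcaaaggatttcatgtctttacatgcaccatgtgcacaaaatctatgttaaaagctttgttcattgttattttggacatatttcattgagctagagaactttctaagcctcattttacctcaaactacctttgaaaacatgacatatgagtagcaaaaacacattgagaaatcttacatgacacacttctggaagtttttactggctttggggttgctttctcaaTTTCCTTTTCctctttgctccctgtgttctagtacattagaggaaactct
The strands named here are relative to the gene. The match in Procr begins 239 bases before the start, that in Pdpn 220 bases before it, and that in Clec4d at the start base itself. A match is a run of letters and not a measured binding site. No match was found in the windows of Slc7a11, Tarm1, Clec4e, Wnk2, Cd38, Mmp14, Fpr2, Ptges, Il1b or Ednrb. Nos2 and Clec4n had no window and were not searched.

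The leading falls, also selected for groups that did not overlap, included Mpo, several cell division genes and genes of varied other functions. Mpo (ENSMUSG00000009350, chromosome 11, 87793581 to 87804413), the myeloperoxidase gene, had 9.28, 13.5 and 8.54 CPM with IFNg and 0, 0.11 and 0.627 CPM with LPS. The highest LPS library was below every IFNg library, and the log2 fold change was -5.47 ± 0.92 (adjusted p = 0.000139). Clec10a, a galactose-binding lectin gene, fell from 36.8 ± 4.72 to 3.64 ± 1.06 CPM, and Lifr, the receptor gene for leukaemia inhibitory factor, from 54.9 ± 4.96 to 6.07 ± 1.29 CPM. Cd300lg, of the CD300 receptor family, had a log2 fold change of -4.92 ± 0.55 (adjusted p = 1.96e-07). Ramp1, an accessory subunit of the receptor for calcitonin gene-related peptide, had one of -3.65 ± 0.46 (adjusted p = 1.36e-06). Aspm, Cenpf, Ccnb2, Esco2 and Neil3, which act in spindle assembly, kinetochores, mitotic entry, cohesion and repair of replicating DNA, had log2 fold changes from -3.48 to -2.93. The epoxide hydrolase gene Ephx1 fell from 47.7 ± 6.66 to 6.26 ± 2.39 CPM. Arhgef10, Etl4, Abca9 and Rnf144b complete the 15.

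Genes of LPS sensing mostly did not pass the test, although Cd14 rose. In the list of LPS sensing and adaptor genes, 5 of 26 tested members rose (19.2%) and 1 fell, with a median log2 fold change of -0.13; without the third LPS library 4 rose and 3 fell, and with RPKM totals 5 rose and 3 fell. Cd14 (ENSMUSG00000051439, chromosome 18, 36725067 to 36726798), which hands LPS to the receptor complex, had 150.3, 151 and 142 CPM with IFNg and 766, 638 and 556 CPM with LPS. The first LPS library was the highest, no LPS library came near the IFNg range, and Cd14 rose by 2.14 ± 0.13 (adjusted p = 4.11e-12). Tlr4 was at 288, 338 and 318 CPM with IFNg and 224, 349 and 330.3 CPM with LPS; these ranges overlapped and the log2 fold change was -0.06 ± 0.15 (adjusted p = 0.848). The kinase genes Irak2 and Ikbke rose by 0.88 ± 0.12 (adjusted p = 2.6e-06) and 1.01 ± 0.25 (adjusted p = 0.007). Ly86, which encodes the partner of the Tlr4-like receptor Cd180, fell from 538 ± 41.3 to 132 ± 3.61 CPM (log2 -2.03 ± 0.12, adjusted p = 2.67e-12).

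Of NF-kappaB subunits and inhibitors, 11 of 23 tested members rose and 2 fell, with a median log2 fold change of 0.67; without the third LPS library 13 rose and 2 fell, and 1 fell without IFNg library 1 or 2 or LPS library 1 or 2. Among the inhibitors that rose, Nfkbie went from 11.4 ± 2.69 to 46.8 ± 11.6 CPM, Tnfaip3, which encodes A20, from 43.2 ± 5.63 to 102 ± 10.3 CPM, and Nfkbia, which encodes IkappaB-alpha, from 46.8 ± 9.19 to 98.3 ± 25.9 CPM. Traf1, an adaptor of TNF receptors, rose by 2.45 ± 0.28 (adjusted p = 3.87e-06) and the subunit gene Relb by 1.08 ± 0.2 (adjusted p = 0.000207). Both members that fell were subunits. Nfkb1 had a log2 fold change of -0.35 ± 0.1 (adjusted p = 0.0102), with adjusted p up to 0.0591 without IFNg library 1, and Rel one of -0.62 ± 0.19 (adjusted p = 0.0206), with adjusted p up to 0.172 without IFNg library 2 or LPS library 1 or 2.

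Negative feedback genes had 14 of 25 tested members higher (56%) and 3 lower, a median of 0.67, and 13 higher and 4 lower without the third LPS library. Il1rn, the interleukin-1 receptor antagonist gene, rose from 12.6 ± 1.28 to 175 ± 44.5 CPM. Dusp4 and Dusp1, phosphatases of MAP kinases, rose by 3.8 ± 0.63 (adjusted p = 5.16e-05) and 1.61 ± 0.16 (adjusted p = 1.71e-08), and Cish, a cytokine signalling inhibitor, by 1.85 ± 0.38 (adjusted p = 0.000648). The members that fell were Zfp36l1, an RNA decay factor gene, at -1.41 ± 0.21 (adjusted p = 1.19e-05), the phosphatase gene Dusp10 at -1.02 ± 0.24 (adjusted p = 0.00227), and Pdlim2 at -0.81 ± 0.17 (adjusted p = 0.000994). The anti-inflammatory cytokine gene Il10 did not pass the test. It had 5.89, 2.65 and 8.89 CPM with IFNg and 1.56, 0 and 2.51 CPM with LPS, a log2 fold change of -2.1 ± 0.85 (adjusted p = 0.0824); without the third LPS library the adjusted p was 0.0381.

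Of 23 tested inflammatory cytokine genes, 9 rose (39.1%) and 2 fell, with a median of 0.58; without the third LPS library 8 rose and 2 fell, and 1 fell without IFNg library 2 or 3 or LPS library 1 or 2. Il1b (ENSMUSG00000027398, chromosome 2, 129364570 to 129371139), the interleukin-1 beta gene, had 1.36, 2.65 and 2.73 CPM with IFNg and 76.9, 61.6 and 56.7 CPM with LPS. It rose by 4.88 ± 0.42 (adjusted p = 3.94e-07). Il6 and Il12b were listed at 0 counts in all IFNg libraries. Il6 had 2.78, 2.8 and 1.32 CPM with LPS, at least 40.1-fold higher (adjusted p = 3.12e-05), and Il12b, a subunit of interleukin-12, had 3.13, 2.47 and 1.88 CPM, at least 42.8-fold higher (adjusted p = 0.000869). Tnf rose from 26.4 ± 3.01 to 92.4 ± 17.7 CPM (log2 1.8 ± 0.21, adjusted p = 3.9e-07) and Il1a from 0.12 ± 0.107 to 5.81 ± 0.876 CPM. Il16 fell from 81.4 ± 16.6 to 27.4 ± 5.8 CPM (log2 -1.57 ± 0.2, adjusted p = 1.69e-06). The other call downward, Tgfb1, had a log2 fold change of -0.43 ± 0.15 (adjusted p = 0.0428) and rested on single libraries, with adjusted p up to 0.198 without IFNg library 2 or 3 or LPS library 1 or 2 or 3.

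Chemokine genes rose in 9 of 20 tested (45%) and fell in 1, with a median of 0.94; the counts were 9 and 2 without the third LPS library, and also without the third IFNg library the lower count was 2. Ccl5, a chemokine for T cells and monocytes, went from 109 ± 1.06 to 758 ± 169 CPM (log2 2.8 ± 0.15, adjusted p = 7.73e-14). Ccl2, the main attractant of monocytes, had 45.1, 27.9 and 28.5 CPM with IFNg and 175, 186 and 229.8 CPM with LPS, with no overlap, and rose by 2.54 ± 0.4 (adjusted p = 0.00021). Ccl7, of the same family, rose by 4.32 ± 0.89 (adjusted p = 0.00252), and the neutrophil attractant gene Cxcl2 went from 0.172 ± 0.214 to 2.37 ± 0.0615 CPM. Ccl6 fell from 63.8 ± 7.07 to 22.2 ± 13.2 CPM (log2 -1.53 ± 0.31, adjusted p = 0.0013).

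Among genes for nitric oxide, itaconate and antimicrobial effectors, 13 of 29 rose (44.8%) and 2 fell, with a median of 0.71, and 14 and 2 without the third LPS library; 1 fell without IFNg library 2 or 3 or LPS library 1 or 2. Acod1 (ENSMUSG00000022126, chromosome 14, 103046977 to 103056573), whose enzyme makes itaconate, had 260.5, 302 and 291 CPM with IFNg and 5879, 5968 and 4417 CPM with LPS. The third LPS library was the lowest of its group and still far above the IFNg range, and the log2 fold change was 4.25 ± 0.15 (adjusted p = 2.27e-17). Both arginase genes, whose enzymes compete with Nos2 for arginine, rose. Arg2 was listed at 0 counts with IFNg and was at least 104-fold higher with LPS (adjusted p = 1.26e-05), and Arg1 rose from 4.23 ± 0.44 to 14.2 ± 4.33 CPM (log2 1.76 ± 0.3, adjusted p = 0.000297). Saa3, an acute-phase protein gene, rose by 3.6 ± 0.49 (adjusted p = 4.92e-05), and Ido1, which degrades tryptophan, by 2.37 ± 0.4 (adjusted p = 0.000145). Camp, the cathelicidin gene of granulocytes, fell from 2.99 ± 0.724 to 0.169 ± 0.148 CPM (log2 -4.04 ± 1.12, adjusted p = 0.00962). The other call downward, the pore-forming protein gene Mpeg1 (-0.3 ± 0.11, adjusted p = 0.0487), had adjusted p up to 0.265 without IFNg library 2 or 3 or LPS library 1 or 2.

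Of 16 eicosanoid genes tested, 6 rose (37.5%) and 5 fell (31.2%), with a median of -0.18, and the counts were also 6 and 5 without the third LPS library. Ptgs2 (ENSMUSG00000032487, chromosome 1, 150100031 to 150108227), inducible cyclooxygenase, had 21.7, 27.5 and 21 CPM with IFNg and 464, 536 and 406 CPM with LPS, without overlap, and rose by 4.32 ± 0.17 (adjusted p = 7.2e-15). Ptges, which acts after it to make prostaglandin E2, rose by 4.9 ± 0.79 (adjusted p = 0.000287), and Ptger2, a receptor gene for that product, by 1.87 ± 0.36 (adjusted p = 0.000266). Pla2g7, a secreted phospholipase gene, rose from 299.9 ± 40.2 to 1509.6 ± 177 CPM. The constitutive cyclooxygenase gene Ptgs1 fell from 45.4 ± 8.56 to 6.83 ± 2.42 CPM (log2 -2.72 ± 0.47, adjusted p = 0.000482). Hpgd, whose enzyme breaks prostaglandins down, fell from 8.76 ± 2.48 to 0.245 ± 0.216 CPM (log2 -5.04 ± 0.51, adjusted p = 2.15e-07). The thromboxane synthase gene Tbxas1 and the prostaglandin D synthase gene Hpgds fell, with log2 fold changes of -0.95 ± 0.11 (adjusted p = 3.74e-07) and -0.93 ± 0.19 (adjusted p = 0.000494).

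**Figure D3:**
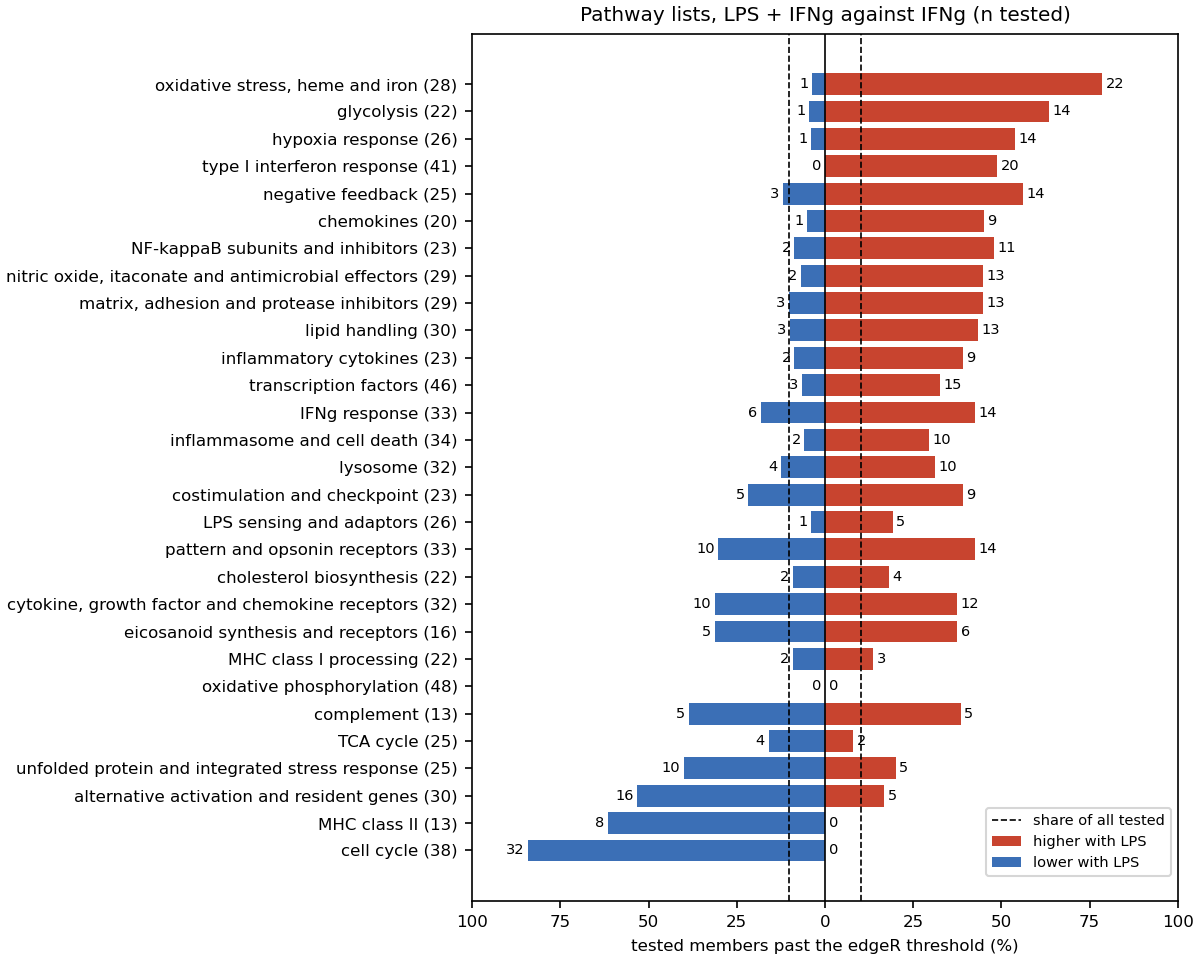
Share of tested members of each pathway list past the edgeR threshold, to the right for higher and to the left for lower with LPS; bar ends carry the number of members and brackets the number tested. Dashed lines mark 10.2% and 10.1%, the shares of all tested genes; 32 of 38 cell cycle genes were lower and 22 of 28 oxidative stress, heme and iron genes higher.

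Genes of the IFNg response, present in both groups, went both ways: 14 of 33 tested members rose and 6 fell, with a median log2 fold change of 0.25; 12 rose and 5 fell without the third LPS library, and 11 rose and 7 fell with RPKM totals. Cxcl9, a T cell attractant, had 528, 539 and 495 CPM with IFNg and 1469.8, 1542 and 2034 CPM with LPS, the third LPS library the highest, and rose by 1.69 ± 0.19 (adjusted p = 9.59e-07). Cxcl10 rose from 249.6 ± 23.7 to 602 ± 48.2 CPM (log2 1.27 ± 0.21, adjusted p = 0.000121). Cd274, which encodes the checkpoint ligand PD-L1, rose from 296 ± 22.7 to 882 ± 32.5 CPM (log2 1.57 ± 0.13, adjusted p = 7.21e-10). Gbp2b, a guanylate-binding protein gene with near copies beside it, fell from 1941 ± 37.3 to 557 ± 165 CPM (log2 -1.8 ± 0.15, adjusted p = 5.96e-09). Wars, which encodes tryptophanyl-tRNA synthetase, fell, with a log2 fold change of -0.73 ± 0.11 (adjusted p = 1.24e-05).

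Type I interferon response genes rose in 20 of 41 tested (48.8%) and fell in 0, with a median of 0.39; 2 were lower at an unadjusted p under 0.05 and 0 by DESeq2. Without the third LPS library 16 rose and 1 fell, and with RPKM totals 17 rose and 2 fell; leaving out the second IFNg library also gave 1 lower. Oasl1, an inhibitor of Irf7 translation, went from 126 ± 21.2 to 708 ± 47.5 CPM (log2 2.49 ± 0.16, adjusted p = 1.28e-11). Rsad2, which encodes viperin, rose by 1.77 ± 0.15 (adjusted p = 2.3e-09), Ifi205 by 1.82 ± 0.22 (adjusted p = 4.91e-06), Isg20, a nuclease gene, by 1.57 ± 0.23 (adjusted p = 1.26e-05), and Ifit1 by 0.94 ± 0.14 (adjusted p = 1.46e-05).

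MHC class II genes fell together while class I genes mostly did not pass. Of 13 class II genes tested, 0 rose and 8 fell (61.5%), with a median of -0.55, and the counts were the same without the third LPS library, by DESeq2 and at an unadjusted p under 0.05. Ciita, on which class II transcription depends (ENSMUSG00000022504, chromosome 16, 10480059 to 10528418), had 741, 709 and 798 CPM with IFNg and 333, 326 and 294 CPM with LPS. The LPS libraries were all below the IFNg libraries, and the log2 fold change was -1.24 ± 0.13 (adjusted p = 7.36e-08). H2-Eb1 fell from 1302 ± 62.4 to 699.7 ± 106 CPM (log2 -0.9 ± 0.13, adjusted p = 1.1e-05), Cd74, the invariant chain gene, from 10154 ± 750.5 to 6487 ± 215 CPM (log2 -0.65 ± 0.11, adjusted p = 5.45e-05), and H2-Ab1 from 1379.9 ± 181 to 963 ± 99.6 CPM (log2 -0.52 ± 0.14, adjusted p = 0.00622). H2-Aa had a log2 fold change of -0.77 ± 0.19 (adjusted p = 0.00624), with adjusted p up to 0.0503 without LPS library 3. Of 22 genes of class I processing, 3 rose (13.6%) and 2 fell (9.09%), with a median of 0.09, shares near those of all genes; the counts moved to 1 higher without IFNg library 2 or LPS library 1, to 4 higher and 1 lower without LPS library 3, and to 5 higher by DESeq2. Pdia3, a chaperone of peptide loading, fell, with a log2 fold change of -0.51 ± 0.1 (adjusted p = 0.000318).

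Costimulation and checkpoint genes had 9 of 23 higher (39.1%) and 5 lower, with a median of 0.43; 8 rose and 5 fell without the third LPS library, and 3 fell without the second IFNg library. Cd40, the receptor for T cell help, rose from 50 ± 6.87 to 151 ± 25.3 CPM (log2 1.6 ± 0.17, adjusted p = 4.89e-08), and Cd200, an inhibitory ligand gene, from 0.141 ± 0.187 to 4.23 ± 1.35 CPM (log2 4.85 ± 1.13, adjusted p = 0.00316). Tnfsf9, the ligand of 4-1BB, rose by 1.3 ± 0.32 (adjusted p = 0.00371). Icosl, the ligand of ICOS, and Vsir, which encodes the checkpoint VISTA, had log2 fold changes of -1.02 ± 0.22 (adjusted p = 0.00109) and -1.0 ± 0.12 (adjusted p = 2.48e-07).

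Pattern and opsonin receptors went both ways: 14 of 33 rose (42.4%) and 10 fell (30.3%), with a median of 0.14, or 12 and 10 without the third LPS library. Beside the Clec4 and Fpr2 genes above, the complement receptor gene C5ar1 rose from 115 ± 8.78 to 223 ± 6.93 CPM. The activating Fc receptor gene Fcgr4 fell from 1809 ± 77.8 to 975 ± 123 CPM (log2 -0.89 ± 0.12, adjusted p = 1.57e-06), and the inhibitory Fcgr2b from 64.9 ± 8.85 to 25.1 ± 8.3 CPM (log2 -1.37 ± 0.2, adjusted p = 9.01e-06). Tlr7, a sensor of single-stranded RNA, and Trem2, a lipid receptor gene, fell, with log2 fold changes of -1.02 ± 0.19 (adjusted p = 0.000479) and -1.21 ± 0.16 (adjusted p = 2.6e-06). Cytokine and chemokine receptors had 12 of 32 higher (37.5%) and 10 lower (31.2%), with a median of 0.07, or 12 and 8 without that library. Ccr7, which guides cells to lymph nodes, rose from 1.14 ± 1.45 to 7.22 ± 0.477 CPM (log2 2.71 ± 0.6, adjusted p = 0.00184), and Ccr1 from 12.9 ± 0.919 to 52.5 ± 5.88 CPM (log2 2.02 ± 0.17, adjusted p = 8.38e-10). Ccr2, the receptor for Ccl2, fell from 497 ± 31.7 to 131 ± 42.4 CPM (log2 -1.93 ± 0.19, adjusted p = 1.23e-07). Il6ra and Tgfbr2, receptor genes for interleukin-6 and TGF-beta, fell, at log2 -0.83 ± 0.13 (adjusted p = 1.77e-05) and -0.81 ± 0.15 (adjusted p = 0.000148).

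Of 46 transcription factors tested, 15 rose (32.6%) and 3 fell, with a median of 0.26, or 0.22 with genes at 0 counts in 1 group set to their bound; the counts were also 15 and 3 without the third LPS library, and 1 fell without the second. Ets2 rose from 7.78 ± 1.71 to 38.1 ± 4.09 CPM (log2 2.28 ± 0.24, adjusted p = 5.82e-08), and Bhlhe40 and Bhlhe41 by 1.44 ± 0.29 (adjusted p = 0.000783) and 1.62 ± 0.28 (adjusted p = 6.73e-05). Klf4 rose by 1.0 ± 0.19 (adjusted p = 0.000297) and the nuclear receptor gene Nr4a2 by 2.0 ± 0.46 (adjusted p = 0.00234). Irf4 (ENSMUSG00000021356, chromosome 13, 30749226 to 30766976), a factor of alternative activation, had 1.67, 1.41 and 2.19 CPM with IFNg and 0.232, 0 and 0 CPM with LPS, and its log2 fold change was -4.33 ± 0.92 (adjusted p = 0.000914).

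Inflammasome and cell death genes had 10 of 34 higher (29.4%) and 2 lower, with a median of 0.29; 11 rose and 0 fell without the third LPS library, 0 fell without IFNg library 1 or 3, and 1 fell without LPS library 1 or 2. Ninj1, which encodes the protein that ruptures the plasma membrane in lytic death, rose from 19.9 ± 3.23 to 131 ± 43 CPM (log2 2.72 ± 0.27, adjusted p = 4.7e-07). Fas and Cflar, a death receptor gene and an inhibitor of its signal, rose by 1.46 ± 0.2 (adjusted p = 3.5e-06) and 1.24 ± 0.16 (adjusted p = 9.99e-07).

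Hypoxia response and glycolysis genes rose without low oxygen among the labelled conditions of either group. In the hypoxia list 14 of 26 rose (53.8%) and 1 fell, with a median of 1.28, and 16 and 1 without the third LPS library. Vegfa, the angiogenic growth factor gene, rose from 12.7 ± 2.44 to 45.1 ± 16.9 CPM (log2 1.82 ± 0.22, adjusted p = 4.37e-07), and Hilpda, a lipid droplet protein gene, from 0.743 ± 0.481 to 8.04 ± 0.836 CPM (log2 3.4 ± 0.61, adjusted p = 0.000353). The collagen hydroxylase gene P4ha2 rose by 2.52 ± 0.43 (adjusted p = 0.000457), and the adenylate kinase gene Ak4, at 0 counts with IFNg, was at least 26.9-fold higher. Selenbp1, the member that fell, went from 17.7 ± 3.41 to 6.37 ± 1.95 CPM (log2 -1.46 ± 0.24, adjusted p = 5.16e-05). In glycolysis 14 of 22 rose (63.6%) and 1 fell, with a median of 0.78, and also 14 and 1 without the third LPS library; 0 fell without the second. The lactate exporter gene Slc16a3 rose from 93.3 ± 14.6 to 499 ± 129 CPM (log2 2.42 ± 0.17, adjusted p = 2.85e-10), and the glucose transporter gene Slc2a1, which is in both lists, had 70, 70.5 and 73.6 CPM with IFNg and 291, 292 and 213 CPM with LPS. Its groups did not overlap and it rose by 1.89 ± 0.14 (adjusted p = 1.33e-10). Pfkl and Tpi1, enzymes of the pathway, rose by 1.46 ± 0.21 (adjusted p = 2.89e-05) and 1.35 ± 0.12 (adjusted p = 1.35e-09).

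Of 25 genes of the tricarboxylic acid (TCA) cycle, 2 rose (8%) and 4 fell (16%), with a median of 0.05, and also 2 and 4 without the third LPS library; 7 fell with RPKM totals, and 1 rose without IFNg library 1 or 2 or LPS library 2. The fumarase gene Fh1, the isocitrate dehydrogenase genes Idh2 and Idh3g and the malate dehydrogenase gene Mdh1 fell, with log2 fold changes of -0.92 ± 0.13 (adjusted p = 4.02e-06), -0.86 ± 0.19 (adjusted p = 0.00166), -0.83 ± 0.12 (adjusted p = 1.25e-05) and -0.52 ± 0.1 (adjusted p = 0.000191). Pcx, which refills the cycle with oxaloacetate, rose by 1.19 ± 0.28 (adjusted p = 0.00245). Of 48 oxidative phosphorylation genes, edgeR called 0, with a median of -0.03; 2 fell with RPKM totals, and 1 or 2 fell when IFNg library 2, LPS library 1 or LPS library 3 was left out. At an unadjusted p under 0.05, 0 were higher and 5 lower, and DESeq2 called 0.

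Lipid handling genes had 13 of 30 higher (43.3%) and 3 lower, with a median of 0.33, or 12 and 3 without the third LPS library. Acsl1, which activates fatty acids, rose by 2.7 ± 0.13 (adjusted p = 7.43e-15), and the fatty acid binding protein genes Fabp4 and Fabp5 by 2.93 ± 0.73 (adjusted p = 0.00409) and 1.95 ± 0.46 (adjusted p = 0.00521). Fasn, the fatty acid synthase gene, fell from 69.5 ± 8.28 to 30.8 ± 5.4 CPM (log2 -1.18 ± 0.18, adjusted p = 1.79e-05), and Apoe from 341 ± 38.1 to 194 ± 38.4 CPM (log2 -0.81 ± 0.19, adjusted p = 0.00276). Abca1, a cholesterol exporter gene, had a log2 fold change of -0.26 ± 0.17 (adjusted p = 0.337). Of 22 cholesterol synthesis genes, 4 rose (18.2%) and 2 fell, with a median of -0.03; 4 rose and 3 fell without the third LPS library, 2 rose without the second IFNg library, and 0 fell without IFNg library 3 or LPS library 2 (1 without IFNg library 1 or 2 or LPS library 1).

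Genes of oxidative stress, heme and iron had the highest share of rises among the pathway lists: 22 of 28 (78.6%), with 1 lower and a median of 1.51, or 23 and 1 without the third LPS library. Hmox1 (ENSMUSG00000005413, chromosome 8, 75093621 to 75100589), heme oxygenase 1, had 164, 152 and 164 CPM with IFNg and 2855, 2506 and 1657 CPM with LPS. The third LPS library was the lowest of its group and far above the IFNg range, and the log2 fold change was 3.87 ± 0.16 (adjusted p = 5.16e-16). Prdx1, a peroxiredoxin gene, rose from 294 ± 38.7 to 3982 ± 461 CPM (log2 3.76 ± 0.12, adjusted p = 2.55e-18), and Gclm, a subunit of the enzyme that starts glutathione synthesis, from 25.6 ± 5.83 to 298 ± 64.4 CPM (log2 3.55 ± 0.24, adjusted p = 7.54e-10). Gpx1, a glutathione peroxidase gene, was the member that fell, from 753 ± 123 to 517 ± 15.1 CPM (log2 -0.54 ± 0.13, adjusted p = 0.0034).

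In the unfolded protein and integrated stress response list 5 of 25 rose (20.0%) and 10 fell (40%), with a median of -0.27, and also 5 and 10 without the third LPS library. Atf4 and its targets Asns and Trib3 rose by 1.08 ± 0.12 (adjusted p = 1.19e-07), 1.47 ± 0.26 (adjusted p = 0.000114) and 1.47 ± 0.26 (adjusted p = 0.000132). The endoplasmic reticulum genes Sdf2l1, Herpud1 and Pdia6 fell, at log2 -1.6 ± 0.33 (adjusted p = 0.00125), -1.03 ± 0.18 (adjusted p = 9.6e-05) and -0.62 ± 0.14 (adjusted p = 0.00121). Lysosome genes had 10 of 32 higher (31.2%) and 4 lower, with a median of 0.11; 7 rose and 5 fell without the third LPS library, 6 rose and 7 fell with RPKM totals, and 6, 5 and 6 rose without IFNg library 1, IFNg library 2 and LPS library 2. Hexa, a hexosaminidase subunit gene, fell, at log2 -0.78 ± 0.1 (adjusted p = 6.25e-07), and the cathepsin genes Ctsz and Ctsl rose by 0.9 ± 0.11 (adjusted p = 9.16e-07) and 0.68 ± 0.11 (adjusted p = 2.06e-05).

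Alternative activation and resident macrophage genes fell in 16 of 30 (53.3%) and rose in 5 (16.7%), with a median of -0.77, or 15 and 6 without the third LPS library. Mrc1 (ENSMUSG00000026712, chromosome 2, 14229392 to 14332057), the mannose receptor gene, had 74.9, 52.4 and 85.6 CPM with IFNg and 7.94, 11.6 and 15 CPM with LPS, without overlap, and a log2 fold change of -2.63 ± 0.3 (adjusted p = 5.39e-06). The haemoglobin scavenger gene Cd163 fell from 4.95 ± 1.87 to 0.415 ± 0.367 CPM (log2 -3.49 ± 0.56, adjusted p = 5.16e-05). Not all members followed: Igf1, a growth factor gene, rose from 17.6 ± 1.08 to 72.6 ± 5.22 CPM (log2 2.04 ± 0.17, adjusted p = 7.21e-10), and Mertk, a receptor for apoptotic cells, from 76.5 ± 2.47 to 227 ± 12.2 CPM (log2 1.57 ± 0.12, adjusted p = 8e-11).

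Complement genes rose in 5 of 13 and fell in 5 (38.5% each), with a median of 0.66, or 6 and 5 without the third LPS library. C3 (ENSMUSG00000024164, chromosome 17, 57203970 to 57228136), the central component, had 1409, 1622 and 2037 CPM with IFNg and 7993, 8980.3 and 9002 CPM with LPS, without overlap, and rose by 2.36 ± 0.17 (adjusted p = 1.99e-10). The protease gene C1s1 rose by 2.56 ± 0.2 (adjusted p = 8.08e-10). The recognition subunits C1qa and C1qc fell, at log2 -0.91 ± 0.12 (adjusted p = 2.61e-06) and -0.91 ± 0.13 (adjusted p = 5.34e-06). Of 29 matrix, adhesion and protease inhibitor genes, 13 rose (44.8%) and 3 fell, with a median of 0.66; 14 rose and 3 fell without the third LPS library, and 5 fell without the first IFNg library. Thbs1, which encodes thrombospondin 1, rose from 81.4 ± 9.29 to 713 ± 60.9 CPM (log2 3.13 ± 0.15, adjusted p = 1.17e-14), and Serpinb9, a granzyme B inhibitor gene, from 34.3 ± 6.7 to 285 ± 12.4 CPM (log2 3.06 ± 0.16, adjusted p = 5.63e-14). The coagulation factor gene F10 rose by 4.29 ± 0.37 (adjusted p = 2.39e-08). The integrin gene Itga4 fell from 334 ± 35.3 to 141 ± 24.2 CPM (log2 -1.25 ± 0.13, adjusted p = 3.39e-08).

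Among the pathway lists, cell cycle genes had the highest share of falls: 32 of 38 (84.2%), with 0 higher and a median of -2.01, and the counts were the same without the third LPS library. At an unadjusted p under 0.05, 1 member was higher and DESeq2 called 0 higher. That member, the cyclin gene Ccnd1, chosen after its values were seen, was at 60.5 ± 17.9 CPM with IFNg and 89.6 ± 11.6 CPM with LPS, and passed without IFNg library 2 or LPS library 1, with no filter, with the replicate block and with the 6 libraries alone. Mki67 (ENSMUSG00000031004, chromosome 7, 135689784 to 135716361), the proliferation marker Ki-67, had 338, 378 and 253 CPM with IFNg and 54.4, 73.5 and 58.7 CPM with LPS, without overlap, and a log2 fold change of -2.38 ± 0.22 (adjusted p = 8.68e-08). The mitotic kinase gene Plk1 fell from 43.2 ± 6.25 to 6.01 ± 0.683 CPM (log2 -2.85 ± 0.27, adjusted p = 1.08e-08), and the kinesin gene Kif20a from 80.6 ± 9.96 to 12.5 ± 2.14 CPM (log2 -2.68 ± 0.25, adjusted p = 4.47e-08). In bulk RNA, fewer cells of a type and less RNA per cell cannot be told apart, here and for the cell type markers.

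Of 11 tested neutrophil and granulocyte precursor markers, 8 fell and 0 rose, with a median of -2.91, and 7 fell without the third LPS library. The count higher was 0 also at an unadjusted p under 0.05 and by DESeq2. Their summed level ran from 110.4 to 132.1 CPM with IFNg and from 28.9 to 44.4 CPM with LPS. These markers include Mpo and Camp above, and their part in those falls was not tested apart. Of 2 B cell markers tested, 2 fell, with a median of -2.19, and 2 fell also without the third LPS library. B cell markers summed to 504.9 to 578.6 CPM with IFNg and 63.3 to 109.6 CPM with LPS, and Ms4a1, Pax5 and Ebf1 were among those at 0 in all 6. Ighm, an immunoglobulin heavy chain gene, carried most of this sum and fell from 533.9 ± 36.2 to 81.3 ± 23.9 CPM. NK cell markers summed to 77.2 to 96.8 against 30.1 to 33.8 CPM with Ncr1, Gzma and Prf1 among those at 0; most of this sum was Klrk1, which went from 85.1 ± 9.59 to 32.2 ± 2.02 CPM. Of 7 dendritic cell markers tested, edgeR called 1 higher and 1 lower, with a median of -0.66, or -1.28 without the third LPS library. DESeq2, and an unadjusted p under 0.05, each gave 1 higher and 3 lower. The dendritic cell markers summed to 90.7 to 95.9 CPM with IFNg and to 30.6 to 40.6 CPM with LPS. This sum rested mostly on Clec9a, the member that edgeR called lower, which went from 83.9 ± 2.84 to 23.1 ± 3.68 CPM. The member that rose was Ccr7, and Cd209a was at 0. T cell markers summed to 43.1 to 60.4 CPM with IFNg and 121.6 to 211.9 CPM with LPS; Il7r, which rose from 51.3 ± 9.18 to 151 ± 51 CPM, carried most of this sum. Endothelial markers summed to 62.8 to 82.6 and 104.5 to 125.9 CPM, with Emcn at 0. They went both ways: of 4 tested, 2 rose and 1 fell, with the same counts without the third LPS library. Fibroblast, mast cell, erythroid and megakaryocyte markers summed to at most 28.9 CPM in any library.

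Levels in the other groups place the LPS response on a scale. Nos2 was at 0.601 ± 0.173 CPM in ctrl, 198 ± 62.2 with IL1b, 1155 ± 165 with hypoxia, 3091 ± 425 with LPS and 20102 ± 1774 with TNF, all but ctrl with IFNg. Il1b stood at 2.73 ± 1.68 CPM with IL1b, 65.1 ± 10.5 with LPS and 1688 ± 159.9 with TNF. Slc7a11 stood at 31 ± 10.9 CPM with LPS, 303 ± 37.1 with TNF and at most 0.489 ± 0.368 in any other group. Ciita was lower with TNF, at 197 ± 16.5 CPM, than with LPS, and Mki67 stood at 53 ± 11.9 with hypoxia, 62.2 ± 10 with LPS and 36 ± 8.84 with TNF, against 868 ± 212 in ctrl. The LPS values thus lay between IFNg and TNF for each of these genes, although for Mki67 the LPS and hypoxia values lay within their spread.

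**Figure D4:**
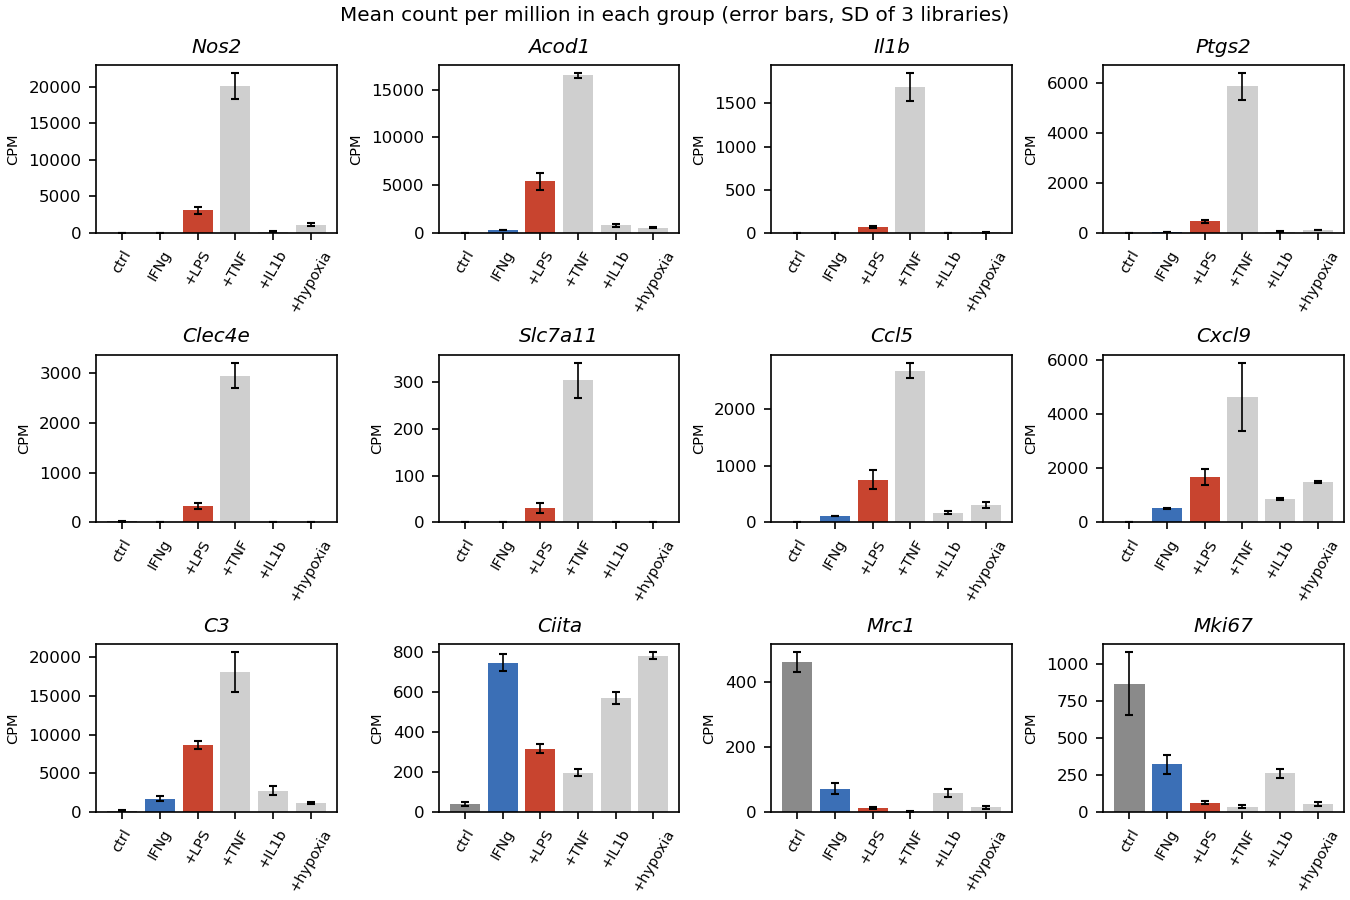
Mean level in CPM of 12 genes in each of the 6 groups, with error bars of 1 SD over 3 libraries; every group but ctrl received IFNg. The TNF bar is above the LPS bar for the 9 genes from Nos2 to C3, and both lie below IFNg for Ciita, Mrc1 and Mki67.

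The direct test of LPS against TNF called 2926 genes (25.3%), 1407 higher with LPS (12.2%) and 1519 lower (13.1%). With RPKM totals the median of all genes shifted by 0.244 and the split was 2621 higher and 884 lower, so directions near 0 depend on the scaling. Of the 15 leading rises, 14 were lower with LPS than with TNF, or 13 with RPKM totals, where Wnk2 was not called. These comparisons share the LPS libraries. Nos2 differed by -2.7 ± 0.22 (adjusted p = 1.87e-08), Acod1 by -1.6 ± 0.13 (adjusted p = 1.01e-09), Il1b by -4.7 ± 0.36 (adjusted p = 8.95e-08), Ptgs2 by -3.64 ± 0.16 (adjusted p = 1.53e-13) and Cd14 by -3.03 ± 0.14 (adjusted p = 1.61e-14), all as log2 LPS over TNF. Ednrb was the exception among the 15, at -0.2 ± 0.52 (adjusted p = 0.828). Of the 15 leading falls, 11 were higher with LPS than with TNF under either scaling, among them Lifr at 2.19 ± 0.29 (adjusted p = 1.73e-06) and Aspm at 1.66 ± 0.34 (adjusted p = 0.000781). For Mpo, Cd300lg, Arhgef10 and Neil3 the difference did not pass; Mpo differed by -0.51 ± 1.09 (adjusted p = 0.791). Arg1 did not pass either, at -0.05 ± 0.27 (adjusted p = 0.926). H2-Ab1 was lower with LPS than with TNF, at -0.76 ± 0.14 (adjusted p = 0.000116), while Ciita was higher, at 0.69 ± 0.13 (adjusted p = 0.000253).

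A gene was set apart with LPS where it differed in the same direction, at an adjusted p under 0.05 each, from IFNg alone and from IFNg with TNF, IL1b or hypoxia. In all, 7 genes were higher (0.0605% of those tested) and 24 lower (0.208%). The higher ones were Ccl2, Plk2, Mmp19, Heatr1, Adssl1, C5ar1 and Vrk2. Ccl2 stood at 197 ± 29.1 CPM with LPS, 91.9 ± 25.2 with TNF, 74.2 ± 6.88 with IL1b, 33.8 ± 9.75 with IFNg alone and 5.95 ± 2.89 with hypoxia. Its level with LPS exceeded TNF by 1.1 ± 0.38 (adjusted p = 0.0444) on the log2 scale. Plk2, a stress-responsive kinase gene, stood at 175, 194 and 209 CPM in the LPS libraries, 121 ± 14.7 with TNF and 77.8 ± 8.11 with IFNg. C5ar1 differed from TNF by 0.43 ± 0.13 (adjusted p = 0.0116) and Mmp19, a matrix metalloproteinase gene, by 0.59 ± 0.15 (adjusted p = 0.00522). The call of Adssl1 against IFNg (log2 0.52 ± 0.16) had adjusted p up to 0.0929 without IFNg library 2 or LPS library 1. The number of higher genes was 21 with RPKM totals and 5 to 10 when 1 library was left out.

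The 24 lower genes were led by Tmem79, Irf4, Map2k6 and Selenbp1 and also held Cd74, H2-Eb1, Nfkb1, Cxcr4 and Runx1, a choice made after their values were seen. Tmem79 was listed at 0 counts in all LPS libraries and at 1.38 ± 0.409 CPM with IFNg, at least 23.5-fold lower with LPS. Map2k6, a kinase that activates p38, went from 5.18 ± 1.09 to 0.935 ± 0.355 CPM and stood at 4.16 ± 1.03 with TNF. Irf4 stood at 12.7 ± 3.73 CPM in ctrl and 0.776 ± 0.257 with TNF, against 0.0773 ± 0.134 with LPS. Selenbp1 was at 265 ± 35.3 CPM with hypoxia and 32.3 ± 8.4 with TNF, above its level with LPS. Hjurp, a centromere chaperone gene, went from 88.7 ± 12 to 36.6 ± 6.33 CPM, with 67.5 ± 6.55 with TNF. The lower count fell to 12 without the third IL1b library and to 14 without the second LPS library, and stood at 32 without the third LPS library. Eml6 rested on single libraries against IFNg (log2 -1.07 ± 0.36), with adjusted p up to 0.176 without IFNg library 1 or 3 or LPS library 2.

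**Figure D5:**
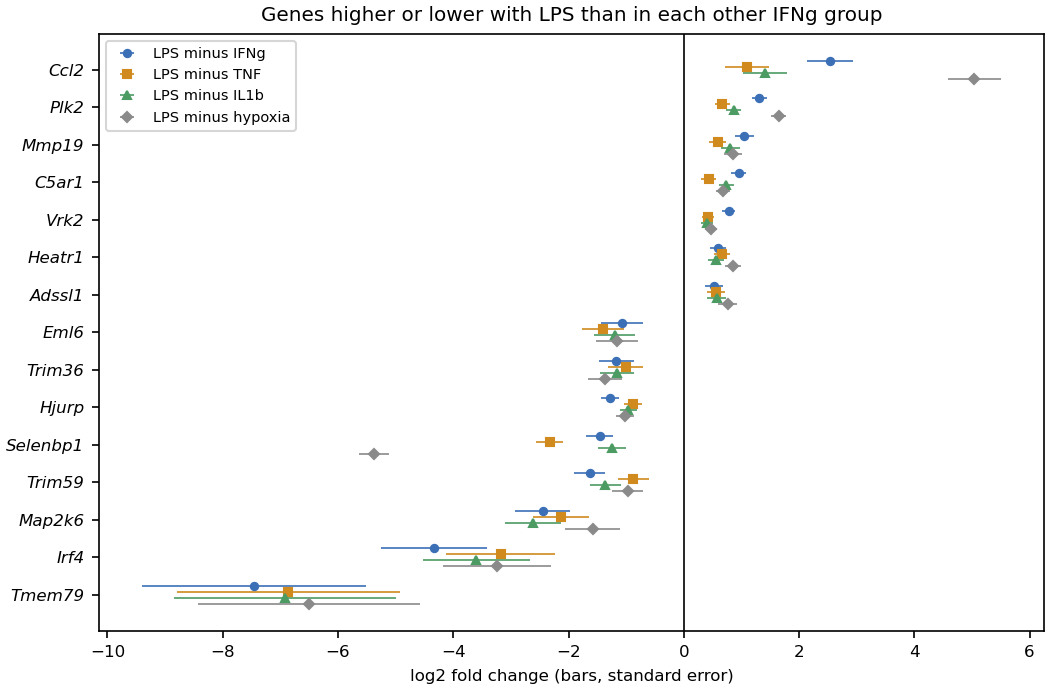
Log2 fold change of LPS against IFNg alone, TNF, IL1b and hypoxia (all with IFNg) for the 7 higher genes and 8 of the 24 lower genes that were set apart; bars are 1 SE. All 4 points of a gene lie on the same side of 0, and the widest bars belong to Tmem79, which had 0 counts with LPS.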

How the data were processed

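Total RNA was made into 18 stranded poly(A) libraries from 100 ng and read as single-end reads of 50 bases, per the labels' protocols. Reads were aligned with GSNAP to mm10, per the submitters' processing notes; which counter was used, and whether by strand, is not given in the sources used here. Reads of overlapping or near-identical genes may thus be shared. The authors deposited, per library, a read count for each of 22598 genes and an RPKM value (reads scaled to gene width and library total). Of the gene widths 86.7% were multiples of 3, so they are treated as coding lengths. Symbols and mm10 positions came from GENCODE M21, which named 22457 of the genes.

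The main test was edgeR 4.0.16's glmQLFTest on the counts, in R 4.3.3 (TMM, filterByExpr, 1 mean per group over 18 libraries, robust fit), with Benjamini-Hochberg adjustment over 11563 tested genes and a threshold of 0.05. CPM is the count over the TMM-scaled total of tested genes. In the 6 libraries TMM factors ran from 0.986 to 1.092, and 3 counts, the floor used, stood at 0.156 to 0.209 CPM per library. A group with 0 counts was bounded with 3 counts over the group; intervals cover counting error only. The RPKM values deposited by the authors served only to recover each library's read total, from 26430961 to 34886827, with 51.9 to 54.89% falling in counted genes. Alternatives were DESeq2 1.42.0, RLE size factors, those RPKM totals, no filter, a replicate block, the 6 libraries alone and each library left out.

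Named genes were the 15 largest rises and falls among called genes with groups that did not overlap and at least 10 CPM in the higher group, up to 4 called members per direction of each of 29 pathway lists, up to 8 set-apart genes per direction, and a fixed list of well-known macrophage genes. Some genes that meet this rule are not reported here. The comparison, the gene lists and the rules were chosen with earlier results of these data known. Of the list symbols 1 was not matched.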

Additional observations from a re-analysis of the deposited data

How the results depend on the processing

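The total of 2348 called genes kept within 1.5 times under every alternative run: 2403 with RPKM totals, 2596 by DESeq2 (2336 of them called by edgeR too), 2346 with RLE factors, 2300 without the filter, 2154 with the 6 libraries alone, and 1860 to 2198 with 1 library of either group left out. With RPKM totals 2126 of the 2348 kept their call and direction. No named gene that was called turned to a call in the opposite direction under any alternative. The sign of genes near 0 that did not pass, such as Tlr4, is not settled. Of 212 genes with a value, 11 to 19 lost their call against IFNg when 1 library was left out, 6 with the 6 libraries alone, and at most 2 under RLE factors, RPKM totals, no filter, the replicate block or DESeq2. Against TNF, 11 lost and 7 gained a call with RPKM totals, 4 lost one by DESeq2 and 4 with no filter, 3 lost and 5 gained one with the replicate block, and 0 changed with RLE factors. Genes set apart with LPS were more sensitive. Those higher numbered 7, 21 with RPKM totals, 11 with the replicate block and 5 to 10 when 1 library was left out. Those lower numbered 24, and 12 (without the third IL1b library) to 32 (without the third LPS library) when 1 library was left out. The cause was not tested. With the replicate number as a block, 2515 genes were called (1263 higher, 1252 lower). Deviations of same-numbered libraries correlated at 0.102, 0.059 and 0.04 across genes, and each library correlated best with its own number. These numbers come from the start of the sample titles, which every group shares, and may mark pairs. The main test did not pair the libraries by number. Genes near the floor, such as Il6, Il12b and Tmem79, are limited by depth: a gene at 0 in a library may stand at up to 0.156 to 0.209 CPM there.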
